A study of Mus musculus with 16 samples.

Results

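The N-myc downstream-regulated (NDRG) family has 4 genes in the mouse, Ndrg1, Ndrg2, Ndrg3 and Ndrg4, and all 4 were found among the 55416 genes of the read-count table by their symbols. Ndrg2 was chosen by its counts in Nprl3-/- libraries, which were higher than in wild-type libraries, so every comparison that involves Nprl3-/- libraries is given for Ndrg2 as a description with no test, and the other 3 genes were taken as its paralogues. The RNA came from erythroblasts sorted from E13.5 foetal liver by surface Ter119 and CD71, at stage 1 (S1, the earlier cells) and stage 3 (S3, basophilic erythroblasts). There were 16 libraries from 8 embryos, with 1 library per embryo at each stage. Wild-type (WT) libraries came from 4 embryos, 2 female (1 and 5) and 2 male (0 and 8). Heterozygous (Het) libraries came from 2 male embryos (3 and 4). Nprl3-/- (KO) libraries came from 1 female (2) and 1 male (9). The KO allele is constitutive, so it is present in all tissues of the embryo, and it lacks the Nprl3 promoter while keeping the alpha-globin enhancers that lie within the gene. The embryos were the replicates, and nothing in the sources used here ties them to litters.

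NDRG proteins have an alpha/beta-hydrolase fold but are not thought to act as hydrolases. The name comes from the repression of the founding gene by MYC proteins, and family members are best known from differentiating, stressed or oxygen-poor cells, in which they rise as proliferation slows. NDRG1 is phosphorylated by the kinase SGK1 and then by GSK3, and that phosphorylation is widely used as a readout of mTOR complex 2. Nprl3 is part of GATOR1, the complex that holds back mTOR complex 1 when amino acids are scarce.

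Total counts ran from 23331156 to 36035368 per library at S1 and from 20666044 to 37609502 at S3. Markers fitted the stages. The sum of 10 erythroid genes was 1937 to 9233 CPM (counts scaled to a common library size) at S1 and 142796 to 186756 CPM at S3, and that of 4 early genes (Kit, Myb, Gata2, Cd34) was 158 to 224 CPM at S1 and 1.69 to 8.39 CPM at S3. The S1 libraries of WT embryos 0 and 8 stood apart, with erythroid sums of 9233 and 8561 CPM against 2674 and 3570 CPM in the other WT embryos. Their sums of 11 neutrophil granule genes were 205 and 117 CPM against 1158 to 1708 CPM in the other S1 libraries, KO and Het included. Differences of the members that use S1 are therefore also given without those 2 libraries. Counts assigned to Nprl3 were 691 to 996 normalized counts in WT and 9.74 and 20.6 in KO at S1, with 386 and 396 in Het. At S3 they were 4446 to 6215 in WT, 4463 and 3593 in Het, and 3256 and 3377 in KO, lower in KO than in each WT library but far from 0. A count over the whole gene does not separate promoter-derived transcripts from RNA that starts within it. The paper's promoter-specific digital PCR detected no Nprl3 mRNA in Nprl3-/- cells. The paper describes transcripts that start at the enhancers as not protein-coding.

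In WT cells the family was carried by Ndrg3, followed by Ndrg2, with Ndrg1 and Ndrg4 low. Levels were compared between genes per length, as CPM per kilobase of the gene's merged exons (FPKM). At S1, WT Ndrg3 stood at 12.9 ± 1.69 FPKM (SD, n = 4), Ndrg2 at 1.86 ± 0.244, Ndrg1 at 0.179 ± 0.0488 and Ndrg4 at 0.109 ± 0.0810. Ndrg3, Ndrg2 and the lower pair were separated in every WT library, whereas Ndrg1 and Ndrg4 overlapped. At S3, WT Ndrg3 stood at 40.8 ± 1.504 FPKM, Ndrg2 at 7.86 ± 0.648, Ndrg4 at 1.17 ± 0.494 and Ndrg1 at 0.377 ± 0.174. The order of the first 2 genes was the same as at S1. Ndrg4 had the higher mean of the lower pair at S3, but its range still overlapped that of Ndrg1.

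**Figure D1:**
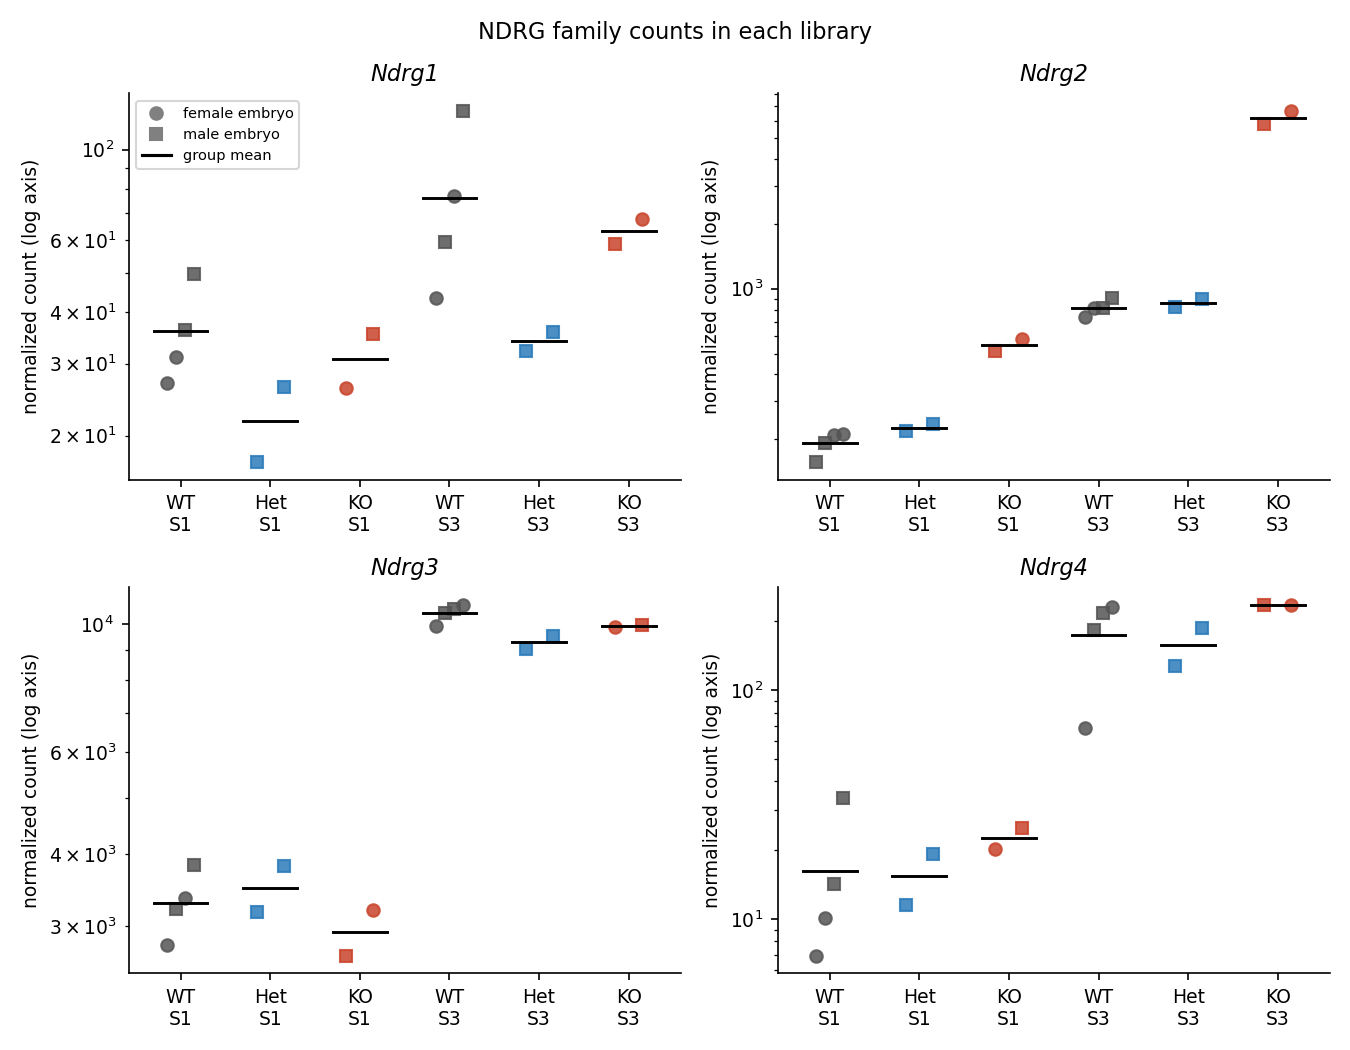
Normalized counts (log axes that differ between panels) of the 4 NDRG genes in each library by genotype and stage. Circles are female and squares male embryos, and bars are group means. Ndrg2 lies at 5777 and 6667 in the KO S3 libraries, above the 736 to 900 of WT S3, while the KO points of Ndrg3 lie within or beside the WT points at both stages.

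Ndrg2 (ENSMUSG00000004558.16) lies on the minus strand of chromosome 14 from 52142728 to 52151615 in mm39, with 3397 bases of merged exons in 18 blocks. It is known as a differentiation-associated member of the family, abundant in brain astrocytes, muscle and liver, and as a gene that MYC represses. No other gene of the annotation shares exon bases with it. Its level rose from S1 to S3 in WT cells and was higher still in KO cells, so the sequence just before its 5′ end in the count table is shown here. The 3 RefSeq starts of Ndrg2 lie within the gene, downstream of that end, and where transcription begins in these cells was not measured. The stretch below, read from the GRCm39 genome at chr14:52151616-52151780 on the minus strand, ends at the base just before the first base of Ndrg2 in the count table and runs back to the next annotated exon.

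Ndrg2 upstream: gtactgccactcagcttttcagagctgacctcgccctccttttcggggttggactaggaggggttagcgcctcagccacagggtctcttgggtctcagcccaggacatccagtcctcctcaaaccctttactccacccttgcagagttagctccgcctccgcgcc

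This stretch of 165 bases is 60.0% G and C and held none of 5 motifs looked for on both strands, which would have been in capitals. The motifs were the E-box CACGTG that MYC and MAX can bind, the hypoxia response core ACGTG, which the E-box contains, the GATA motif AGATAA, an interferon response-like pattern of TTTC and TTTC with any 2 bases between them, and an amino acid response-like pattern TGATGNAA. They occurred in 4.60%, 12.1%, 6.26%, 1.83% and 2.35% of the 165 bases before 32486 RefSeq starts. Windows of 250 bases before each start were also searched, where the motifs occurred in 6.04%, 16.7%, 9.97%, 2.98% and 3.40% of 32536. None of the 4 such windows of Ndrg2 (3 RefSeq starts and the 5′ end in the count table) and none of the 3 of Ndrg3 held any of the 5. That says only that these letters were not in these windows. The RefSeq table used here held no window for Ndrg1. In 1 of the 5 windows of Ndrg4 an E-box, which is also a hypoxia response core on both strands, lay 38 bases before a RefSeq start. It is shown in capitals, from chr8:96404341-96404370 on the plus strand of GRCm39.

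Ndrg4 E-box: cgcccacccaccCACGTGggcacgcccccg

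In WT cells at S1, Ndrg2 had 193, 209, 211 and 157 normalized counts in embryos 0, 1, 5 and 8. In the same embryos at S3 it had 900.5, 736, 811 and 812. All 4 embryos moved the same way and the stages did not overlap. Ndrg2 rose by 2.11 on the log2 scale (SE 0.16, 4.31-fold, edgeR adjusted p = 2.1e-06) from S1 to S3 in WT. In this comparison 65% of 13514 genes tested were called at an adjusted p under 0.05, 29.4% as higher and 35.6% as lower at S3, and the stages did not overlap for 60.3%, so a call alone is common. Without the S1 libraries of WT embryos 0 and 8 the rise of Ndrg2 was 2.02. The median change of all genes was -0.13 in WT, -0.17 in Het and -0.19 in KO, and -0.08, -0.10 and -0.08 with RLE size factors, a shift that turned the direction of no stage change of a member. Among all genes the WT change of Ndrg2 stood at the 89.8th percentile.

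Het cells gave Ndrg2 values close to those of WT. At S1 the counts were 234 and 219, both above the 4 WT libraries. The difference was 0.23 (SE 0.21, 95% interval -0.26 to 0.73) with an edgeR adjusted p of 0.907, and it was 0.13 without WT embryos 0 and 8. Non-overlapping groups were found for 18.2% of all genes tested at S1, 9.14% with Het higher, and no gene was called in either direction (0 of 13818, 0%). At S3 Ndrg2 had 823 and 895 counts in Het, within the range of WT, and the difference was 0.15 (SE 0.14, 95% interval -0.17 to 0.46, edgeR adjusted p = 0.918). It ran from 0.068 to 0.22 with each embryo left out, lowest without Het embryo 4, and was 0.069 with sex as a covariate. Het Ndrg2 rose by 1.92 (SE 0.17, edgeR adjusted p = 4.5e-13) from S1 to S3, where 76.2% of genes were called, 33.5% as higher at S3, and 87.7% did not overlap. The p-values of stage changes of members in Het and KO rest on 2 embryos each, with the spread partly estimated from other genes. They cannot be ranked against those of WT. The Het comparisons share their WT libraries with the KO comparisons by which Ndrg2 was chosen.

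The KO values are those that chose Ndrg2. At S1 its counts were 581 in embryo 2 and 513 in embryo 9, against 157 to 211 in WT. At S3 they were 6667 and 5777, against 736 to 900.5 in WT and 823 to 895 in Het. Each KO library was above every WT and Het library of its stage, and the KO S1 libraries were still below all S3 libraries. The fitted difference from WT was 1.52 (SE 0.21, 2.87-fold) at S1 and 2.98 (SE 0.14, 7.88-fold) at S3. Leaving out any 1 embryo gave 1.44 to 1.6005 at S1 and 2.90 to 3.09 at S3, and 1.39 at S1 without WT embryos 0 and 8. Within the KO embryos Ndrg2 was 3.50 higher at S3 than at S1 (SE 0.19, 11.3-fold), and the stage difference exceeded that of WT by 1.42 (SE 0.23), or by 1.55 without the S1 libraries of WT embryos 0 and 8. Of all genes tested, 0.00712% were called between KO and WT at S1, 0.508% at S3 and 0.00742% in the comparison of the stage differences. The KO and WT groups did not overlap for 10.2% of genes at S1 (6.99% with KO higher) and 18.5% at S3 (9.12% with KO higher).

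**Figure D2:**
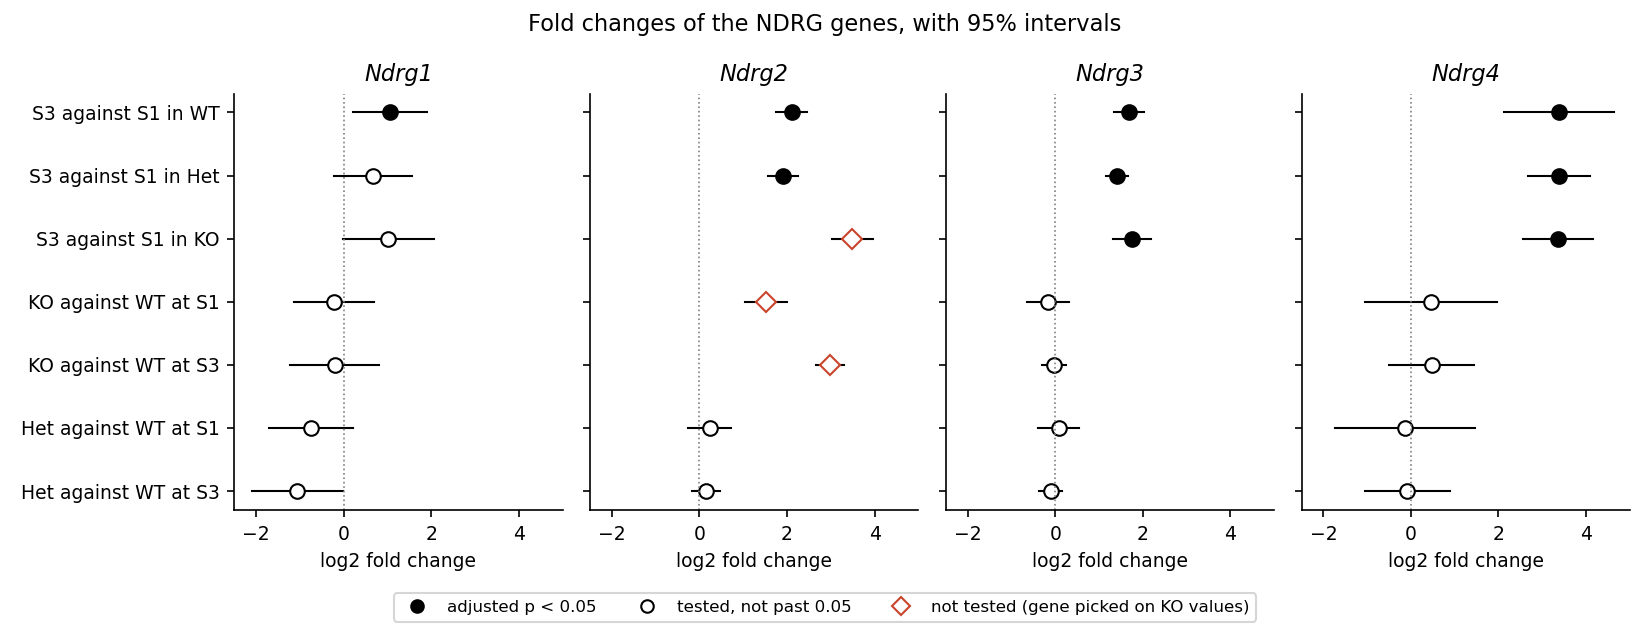
Log2 fold changes of each NDRG gene in 7 comparisons, with 95% intervals from the edgeR fits. Filled circles passed an adjusted p of 0.05, open circles did not, and red diamonds are Ndrg2 in comparisons with KO libraries, which were not tested. The intervals of the diamonds rest on the values that chose Ndrg2, so whether they include 0 is no test. The stage rises of Ndrg2, Ndrg3 and Ndrg4 lie to the right of 0 in each genotype, whereas the intervals of Ndrg1, Ndrg3 and Ndrg4 between KO and WT include 0.

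No list of markers of other cell types was above WT in both KO libraries at S3. In bulk RNA, more cells that express a gene and more RNA per cell cannot be told apart. The sum of 15 macrophage markers was 24.6 and 37.3 CPM in the KO S3 libraries against 50.8 to 106 CPM in WT, with Cd163 and Vsig4 at 0 in KO. The sum of 14 hepatoblast markers was 73.8 and 205 CPM against 173 to 793 CPM in WT, and that of 10 megakaryocyte markers 62.0 and 122 CPM against 59.1 to 105 CPM. The neutrophil sum was 1.603 and 14.2 CPM against 1.26 to 4.94 CPM, the sum of 8 endothelial markers 5.05 and 17.2 CPM against 6.09 to 30.3 CPM, and that of 7 mast cell and basophil markers 0.123 and 0.321 CPM against 0 to 3.32 CPM. The erythroid sum was 142796 and 144720 CPM in KO, below the 160885 to 186756 CPM of WT.

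At S1, in contrast, the sums of 3 of these 6 lists were above every WT library in both KO libraries. The neutrophil sum was 1628 and 1708 CPM in KO against 117 to 1383 CPM in WT, with 1576 and 1568 CPM in Het. The mast cell and basophil sum was 112 and 84.8 CPM in KO against 8.49 to 55.8 CPM in WT, most of it from Hdc, and the macrophage sum was 70.2 and 71.5 CPM against 31.9 to 58.6 CPM, most of it in KO from Lyz2, with Vsig4 at 0. The sums of these lists thus moved in the same direction as Ndrg2 at S1. Within the macrophage list the KO means of Lyz2, Csf1r, Mrc1 and Cd163 were above those of WT. Most of that list went the other way, with lower KO means for Adgre1, C1qa, C1qb, C1qc, Cd68, Marco, Timd4, Fcna, Cd5l and Vcam1. The hepatoblast sum was 30.6 and 156 CPM in KO against 54.9 to 311 CPM in WT, the megakaryocyte sum 38.3 and 92.9 CPM against 42.6 to 76.9 CPM, and the endothelial sum 5.86 and 10.7 CPM against 5.85 to 12.2 CPM. The erythroid sum was 1937 and 3480 CPM in KO against 2674 to 9233 CPM in WT. The part of these lists in the S1 difference of Ndrg2 was not tested.

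Ndrg3 (ENSMUSG00000027634.15) lies on the minus strand of chromosome 2 from 156769265 to 156833976, with 8388 bases of merged exons in 17 blocks. The protein is known as a lactate-binding member of the family that builds up when oxygen is low. Gm56159 lies within it but shares 0 exon bases. WT counts were 3213, 2780, 3351 and 3831 at S1 and 10436, 9908, 10802 and 10615 at S3 for embryos 0, 1, 5 and 8. The stages were clearly separated, with a rise of 1.68 (SE 0.16, 3.20-fold, edgeR adjusted p = 6.6e-06) in WT, and of 1.83 without the S1 libraries of embryos 0 and 8. In Het the counts went from 3818 and 3175 to 9544 and 9039, a rise of 1.41 (SE 0.12, edgeR adjusted p = 3.4e-13), and in KO from 3198 and 2666 to 9869 and 9969, a rise of 1.75 (SE 0.18, edgeR adjusted p = 0.00084).

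Between genotypes Ndrg3 showed no difference past the threshold. KO minus WT was -0.16 (SE 0.20, 95% interval -0.63 to 0.31) at S1 and -0.03 (SE 0.12, 95% interval -0.29 to 0.24) at S3, with edgeR adjusted p of 1.0 and 0.98. The S3 interval is the narrowest of the family between KO and WT. Het minus WT was 0.08 (SE 0.20) at S1 and -0.10 (SE 0.12) at S3. Without WT embryos 0 and 8 the S1 differences were -0.052 for KO and 0.21 for Het. With each embryo left out the S1 difference of KO from WT ran from -0.29 to -0.045. The stage difference was 0.09 larger in KO than in WT (SE 0.22, edgeR adjusted p = 1.0), and turned to -0.011 without those 2 libraries.

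Ndrg4 (ENSMUSG00000036564.18) lies on the plus strand of chromosome 8 from 96403608 to 96441747, with 4893 bases of merged exons in 20 blocks. It is best known from neurons and heart muscle. Its counts were small at S1, with 9 to 54 raw counts in the WT libraries, which limits the precision of every S1 value. WT embryos 0, 1, 5 and 8 had 14.3, 6.93, 10.1 and 33.9 normalized counts at S1 and 183, 68.5, 232 and 217 at S3. Embryo 1 was lowest at both stages, and still every S3 library lay above every S1 library. Ndrg4 rose by 3.39 (SE 0.57, 10.5-fold, edgeR adjusted p = 0.00038) in WT, by 3.38 (SE 0.35, edgeR adjusted p = 3.4e-11) in Het and by 3.36 (SE 0.32, edgeR adjusted p = 0.00074) in KO. Without the S1 libraries of WT embryos 0 and 8 the WT rise was 4.40. Ndrg4 had the largest fitted stage difference of the family in WT and Het, while in KO that of Ndrg2, at 3.50, was slightly larger.

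At S3 the KO libraries had 237 and 235 counts of Ndrg4, above all WT libraries as were 9.12% of genes, and Het had 127 and 187, within the WT range. KO minus WT was 0.47 (SE 0.42, 95% interval -0.49 to 1.44, edgeR adjusted p = 0.87). Without WT embryo 1, the lowest WT library, it was 0.20. At S1 the KO counts of 20.2 and 25.1 lay within the WT range, and the difference was 0.45 (SE 0.65, 95% interval -1.05 to 1.96, edgeR adjusted p = 1.0). WT embryo 8 set that range. Without WT embryos 0 and 8 the S1 difference was 1.42, and without embryo 8 alone it was 1.16, whereas without embryo 1 it was 0.19 and without embryo 5 or embryo 9 it was 0.28 and 0.27, none past the threshold. Het minus WT was -0.14 (SE 0.69) at S1, turned to 0.85 without embryos 0 and 8, and was -0.74 with sex as a covariate. Both KO intervals hold a log2 difference of 0 and of 1.

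Ndrg1 (ENSMUSG00000005125.14) lies on the minus strand of chromosome 15 from 66801167 to 66841489, with 6596 bases of merged exons in 16 blocks. It is the founding member, induced by hypoxia and by many stresses. The opposite-strand genes Gm17035 and Gm2895 share 419 and 137 of its exon bases. Since the strand was not used in counting and reads over more than 1 gene were not counted, reads in those bases are missing from the counts of Ndrg1. Ndrg1 had 19 to 79 raw counts per library, and its values are correspondingly coarse.

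WT embryos 0, 1, 5 and 8 had 36.2, 26.9, 31.1 and 49.6 normalized counts of Ndrg1 at S1 and 59.3, 77.0, 43.3 and 124 at S3. Each embryo was higher at S3, but the lowest S3 library was below the highest S1 library. The WT rise of 1.06 (SE 0.38, 2.08-fold) passed with an edgeR adjusted p of 0.030. It did not pass without embryo 0 (1.14, adjusted p = 0.067) or without embryo 1 (0.93, adjusted p = 0.11), both in edgeR. Without the S1 libraries of embryos 0 and 8 it was 1.43 (edgeR adjusted p = 0.020). Het went from 17.2 and 26.3 to 32.2 and 35.9 (0.67, SE 0.44, edgeR adjusted p = 0.17) and KO from 26.2 and 35.5 to 67.7 and 58.8 (1.02, SE 0.42, edgeR adjusted p = 0.089), neither past the threshold. The stage differences of KO and WT differed by -0.02 (SE 0.61), which leaves a wide interval of -1.36 to 1.31, and by -0.34 without the S1 libraries of WT embryos 0 and 8.

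Ndrg1 had lower Het means than WT at both stages, and neither difference was called. At S3 both Het libraries lay below all WT libraries, a placing that 12.5% of genes showed in either direction and 6.81% in this one. The difference was -1.06 (SE 0.46, 95% interval -2.09 to -0.03), with an unadjusted edgeR p of 0.046 and an adjusted p of 0.918. At S1 it was -0.75 (SE 0.41, edgeR adjusted p = 0.907), with -0.41 without WT embryos 0 and 8 and -0.47 without Het embryo 3. No gene of the 11746 tested was called between Het and WT at S3 (0%), although 368 had an unadjusted p under 0.05 and DESeq2 called 1, and at S1 580 genes had an unadjusted p under 0.05 and DESeq2 called 22. Both Het embryos were male while 2 of the WT embryos were female, and with sex as a covariate the S3 difference was -1.33 (edgeR adjusted p = 0.068). KO minus WT was -0.22 (SE 0.39) at S1, turning to 0.11 without WT embryos 0 and 8, and -0.20 (SE 0.45, 95% interval -1.22 to 0.82) at S3, turning to 0.15 without WT embryo 8.

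In counts of members, all 4 passed the filter on low counts in each comparison. From S1 to S3, 4 of 4 rose in WT, 3 of 4 in Het and 2 of the 3 tested in KO, and DESeq2 gave the same counts. The WT count was 3 of 4 without embryo 0 or embryo 1. Of all genes tested, 29.4% were called as higher at S3 in WT, 33.5% in Het and 22.6% in KO, where 52.9% were called in either direction and the stages did not overlap for 78%. Between KO and WT, edgeR called 0 of the 3 members tested at either stage, beside 0.00712% of all genes at S1 and 0.508% at S3. An unadjusted edgeR p under 0.05 was found for 0, beside 2.56% and 8.59% of all genes, and DESeq2 called 0. Between Het and WT edgeR called 0 of 4 at either stage, beside 0% of all genes, and DESeq2 called 0. An unadjusted edgeR p under 0.05 held for 0 at S1 and 1 (Ndrg1) at S3, beside 4.2% and 3.13% of all genes. The difference between KO and WT in the change with stage was called by edgeR for 0 of the 3 tested, beside 0.00742% of all genes. There 0 had an unadjusted edgeR p under 0.05, beside 2.96% of all genes, and DESeq2 called 0.

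**Figure D3:**
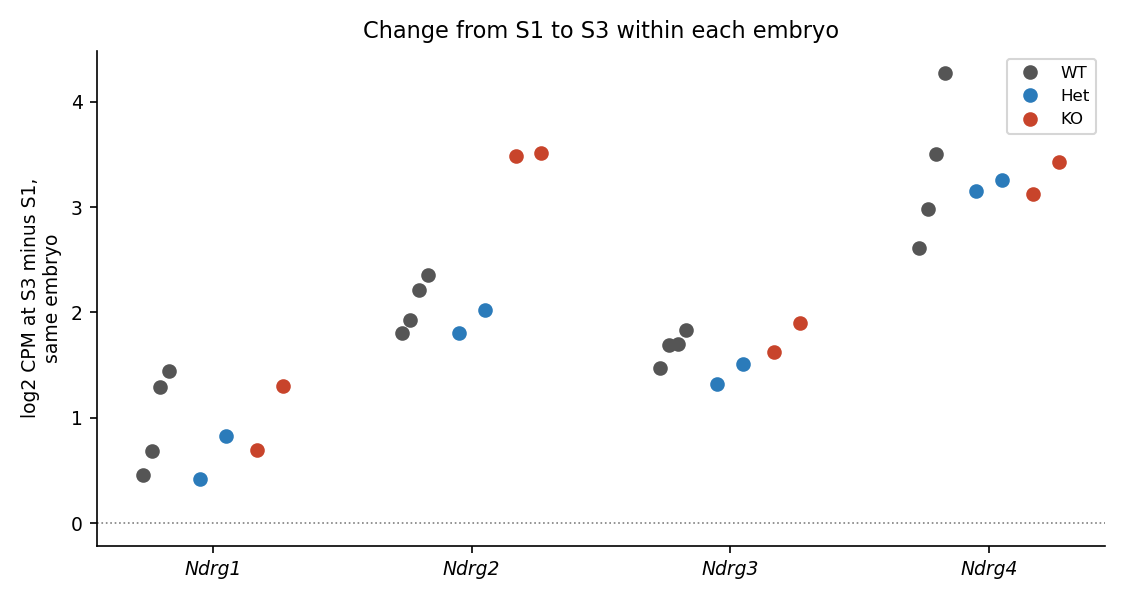
Difference in log2 CPM between S3 and S1 within each embryo, for the 4 NDRG genes. Each point is 1 embryo, coloured by genotype. Both KO embryos lie at 3.49 and 3.52 for Ndrg2, above the 1.80 to 2.36 of WT and Het, while the 3 genotypes interleave for Ndrg4.

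Within embryos the stage differences of the 4 genes behaved differently. For Ndrg2 they were 1.80 to 2.36 in the 4 WT embryos, 1.80 and 2.02 in Het, and 3.49 and 3.52 in KO. Ndrg3 was the most even, with 1.47 to 1.83 in WT, 1.32 and 1.51 in Het, and 1.62 and 1.90 in KO. For Ndrg4 they were 2.61 to 4.27 in WT, a span that held both Het embryos (3.15 and 3.26) and both KO embryos (3.13 and 3.43). Ndrg1 differed by 0.45 to 1.45 in WT, 0.42 and 0.83 in Het, and 0.70 and 1.31 in KO, so that each of the 8 embryos was above 0 for each of the 4 genes.

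The make-up of the family therefore differed between KO and the other genotypes at S3, by the values that chose Ndrg2. Ndrg2 made up 15.1 to 17.04% of the summed FPKM of the 4 genes in WT at S3, 17.2 and 19.03% in Het, and 57.7 and 61.4% in KO. At S1 its share was 8.92 to 15.5% in WT, 13.04 and 14.3% in Het, and 30.5 and 31.5% in KO. Ndrg3 held most of the rest, with 80.0 to 83.0% in WT at S3 and 36.8 and 40.3% in KO. Ndrg2 stood at 60.0 ± 6.07 FPKM (SD, n = 2) in KO at S3, above Ndrg3 at 38.7 ± 0.278, so that the order of the first 2 genes was the reverse of that in WT. The ratio of Ndrg2 to Ndrg3 was 1.43 and 1.67 in KO at S3 and 0.183 to 0.213 in WT. The summed level of the family was 96.5 and 105 FPKM in KO at S3 against 46.6 to 51.8 FPKM in WT, and 15.7 and 18.4 against 13.1 to 16.9 FPKM at S1. Ndrg4 reached at most 3.00% and Ndrg1 at most 1.45% in any WT library.

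**Figure D4:**
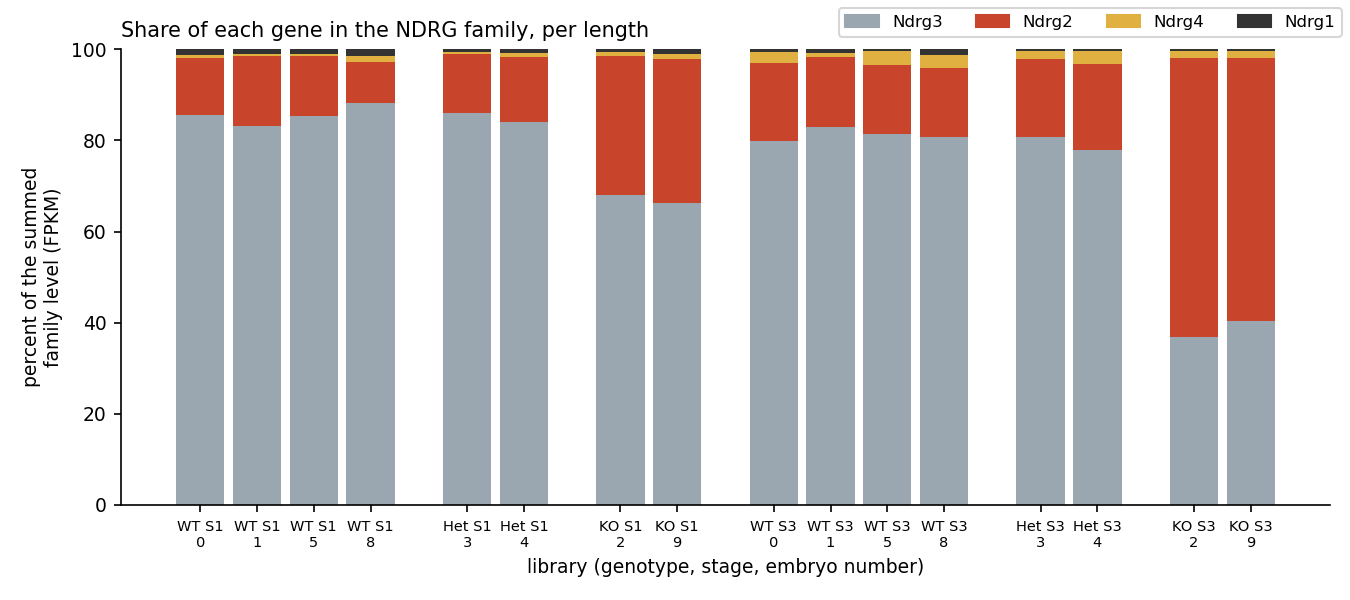
Share of each NDRG gene in the summed family level (percent of FPKM) in each library, ordered by stage, genotype and embryo number. Ndrg3 (grey) fills 80.0 to 83.0% of the WT bars at S3, and Ndrg2 (red) fills 57.7 and 61.4% of the KO bars at S3.

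The genes whose pattern over the libraries was most like that of each member were ranked by Pearson correlation over the 16 libraries, after the mean of each stage was subtracted from log2 CPM, among 13401 genes. The libraries share embryos in pairs, so the points are not independent. For Ndrg2 the 5 were Tor1aip2 (0.956), Pfkp (0.956), Nampt (0.940), Nab1 (0.938) and Rnf114 (0.935). Tor1aip2 encodes a membrane protein of the endoplasmic reticulum that activates torsins, Pfkp a form of the glycolytic enzyme phosphofructokinase and Nampt the enzyme that recycles nicotinamide. Most of the spread behind these values lies between the 4 KO libraries and the rest. Pfkp went the other way from Ndrg2 with stage: it had 690.1 to 1196 normalized counts at S1 and 210.3 to 265.6 at S3 in WT, while its KO counts at S3 were 1291 and 806. Without subtraction of the stage means the 5 genes were Tor1aip2, Ifih1, Isg15, Parp12 and Igtp, so that 1 of 5 was shared.

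**Figure D5:**
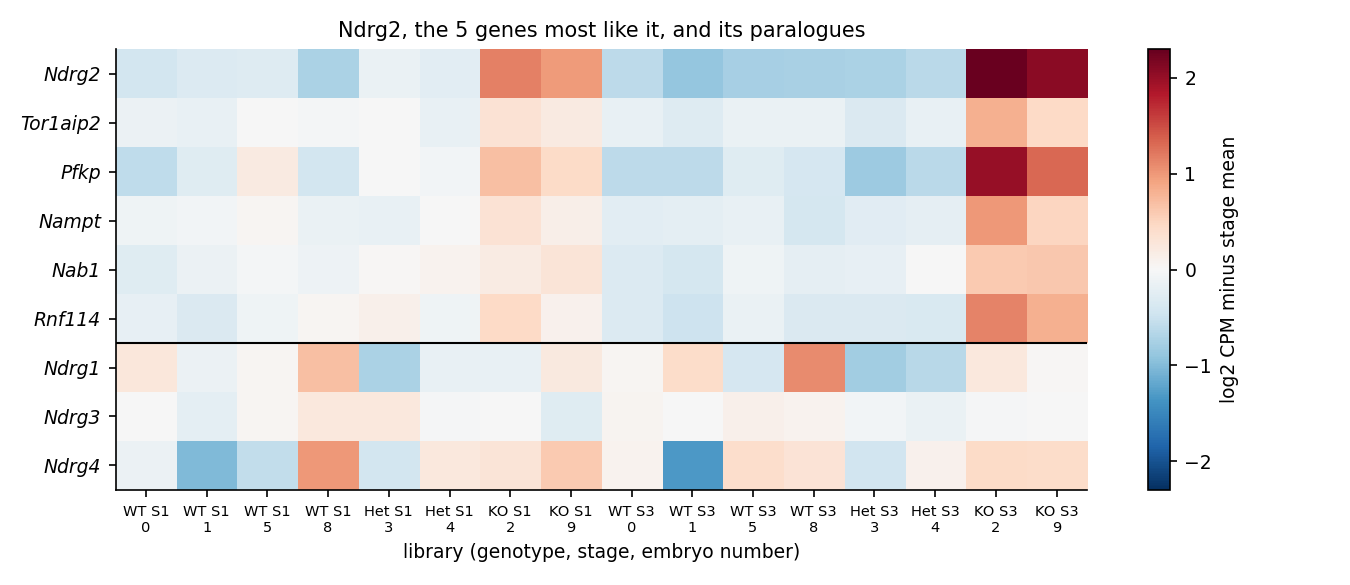
Log2 CPM minus the mean of the stage (colour scale) in each library for Ndrg2, the 5 genes most like it and, under the line, its paralogues. The KO columns are mostly red for the first 6 rows, more so at S3, while the row of Ndrg4 is also above 0 in the KO columns, the KO values of Ndrg1 lie on both sides of 0 and those of Ndrg3 below it.

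The paralogues had other neighbours. Ndrg3 was most like Mlst8 (0.902), a subunit shared by both mTOR complexes, followed by Vps52, Fbxw5, Fancc and Zfp574 (0.892 to 0.882). Ndrg4 was most like Uba7 (0.865), the activating enzyme for ISG15, followed by Hdac5, Sesn1, Il1rl2 and Camta2 (0.847 to 0.807). Ndrg1 was most like Cops2 (0.843), a COP9 signalosome subunit, followed by Rasa1, Ripor3, Gm12107 and Adal (0.791 or higher). Without subtraction of the stage means, 0 of the 5 were shared for Ndrg3, 2 for Ndrg4 (Uba7 and Hdac5) and 1 for Ndrg1 (Ripor3). Among the members themselves the stage-centred correlations ran from -0.24 (Ndrg2 and Ndrg3) to 0.37 (Ndrg2 and Ndrg4).

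Genes known to act on the family mostly changed with stage, as did most genes. Of all genes tested in the stage comparison in WT, 29.4% were called as higher and 35.6% as lower at S3. Of 13 genes of the MYC network, 12 were tested in that comparison, and 3 rose and 5 fell. Myc fell by 3.66 (SE 0.22, edgeR adjusted p = 5.5e-07), Mlxip, a partner of the MLX branch, fell by 2.63 (SE 0.17), and Mxd3, which competes with MYC for MAX, rose by 5.43 (SE 0.33). The list's median was -0.65, beside -0.13 for all genes. Of the NDRG kinases and their regulators 11 of 12 were tested, and 5 rose and 2 fell, with a median of 0.32. Sgk3 rose by 3.21 (SE 0.34, edgeR adjusted p = 1.5e-05), Pdpk1, the kinase that activates SGK proteins, by 1.56 (SE 0.17) and Rictor, a defining subunit of mTOR complex 2, by 1.27 (SE 0.19). Sgk1 itself did not pass (0.32, SE 0.31, edgeR adjusted p = 0.38).

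Of 9 oxygen-sensing genes 8 were tested, and 1 rose and 5 fell in WT, with a median of -0.54 beside -0.13 for all genes. Of all genes tested in WT, 29.4% were called as higher and 35.6% as lower at S3, so a call alone is common. Arnt, the constitutive partner of the HIF proteins, rose by 1.37 (SE 0.30), Hif1a fell by 1.05 (SE 0.23) and Egln3, a HIF prolyl hydroxylase, fell by 3.53 (SE 0.91), with edgeR adjusted p of 0.0021, 0.0022 and 0.0057. Of the other factors 3 were tested and all fell: Trp53 by 1.51 (SE 0.15), Nr3c1, the glucocorticoid receptor, by 0.65 (SE 0.15) and Egr1 by 1.25 (SE 0.48). Sgk2, Epas1 and Wt1 were too low to be tested in any comparison. Without the S1 libraries of WT embryos 0 and 8 the MYC network and kinase counts were the same, the oxygen list had 2 higher and 4 lower, and the other factors 2 lower. Without embryo 5 the MYC network had 3 lower and the oxygen list 3 lower, and without embryo 8 the oxygen list had 2 higher.

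The same lists changed with stage in the other genotypes, where many genes did: 33.5% of all genes tested were called as higher and 42.6% as lower at S3 in Het, and 22.6% and 30.3% in KO. In Het, 3 genes of the MYC network rose and 5 fell, led by Mxd1 (6.25, SE 0.16), Mxd3 (5.95, SE 0.16) and Myc (-4.16, SE 0.14). In KO the counts were 3 and 5, and 3 and 7 with the embryo as a block, led by Mxd3 (5.38, SE 0.20), Myc (-3.32, SE 0.20) and Mxd1 (5.54, SE 0.33). The kinases gave 5 higher and 3 lower in Het (Sgk3 3.88, Pdpk1 1.74, Akt1 -1.22) and 5 higher and 2 lower in KO (Sgk3 2.99, Rictor 1.15, Gsk3a 1.16). The oxygen list gave 3 higher and 5 lower in Het (Arnt 1.49, Hif1a -1.36, Egln2 -0.70) and 1 higher and 3 lower in KO (Arnt 1.29, Hif1a -0.97, Egln3 -2.58). The other factors gave 3 lower in Het (Trp53 -1.56, Egr1 -2.13, Nr3c1 -0.65) and 2 lower in KO (Trp53 -1.37, Nr3c1 -0.89). In KO the oxygen list gave 2 higher and 5 lower with the embryo as a block, 1 and 1 without embryo 2 and 0 and 0 without embryo 9 (2 at an unadjusted edgeR p under 0.05), while the MYC network gave 3 and 3 without either embryo and the kinases 4 and 1. Leaving out an embryo was done with all other libraries in the fit. With all 16 libraries in the fit and both embryos kept, the KO counts were the same. Those of Het were then 3 and 4 in the MYC network, 5 and 2 among the kinases, 1 and 5 in the oxygen list and 3 lower among the other factors. Beside these, the MYC network in Het gave 3 and 2 without either embryo, the oxygen list 1 and 2 without embryo 3 and 1 and 3 without embryo 4, and the other factors 1 lower without embryo 3.

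Between KO and WT, edgeR called 0 genes of the 4 lists at either stage, beside 0.00712% of all genes at S1 and 0.508% at S3. At S1 1 oxygen-sensing gene and 1 of the other factors had an unadjusted edgeR p under 0.05, beside 2.56% of all genes. DESeq2 called 0 of the lists there. At S3 1 gene each of the MYC network, the oxygen list and the other factors had such a p, beside 8.59% of all genes. DESeq2 called 1 of these, in the MYC network, lower, beside 145 higher and 114 lower of 11735 genes. The smallest p-values at S3 belonged to Mxd3 (-0.59, SE 0.14, edgeR adjusted p = 0.17) and Myc (0.33, SE 0.24) in the MYC network, to Egln2 (0.37, SE 0.14) and Hif1a (0.33, SE 0.19) in oxygen sensing, to Trp53 (0.34, SE 0.14) and Nr3c1 (-0.18, SE 0.13) among the other factors, and to Sgk3 (-0.21, SE 0.12) and Pdpk1 (-0.21, SE 0.19) among the kinases. Mxd3 had 3175 and 3198 normalized counts in KO against 4425 to 5283 in WT, whereas Myc had 792 and 952 against 450.4 to 913 and overlapped. At S1 they belonged to Mxd4 (1.03, SE 0.57) and Max (0.79, SE 0.55), to Egln3 (1.596, SE 0.67) and Egln2 (0.13, SE 0.18), to Egr1 (-1.07, SE 0.40) and Trp53 (0.13, SE 0.19), and to Mlst8 (-0.36, SE 0.34) and Mapkap1 (-0.13, SE 0.18), all with an edgeR adjusted p of 1.0. The list medians between KO and WT lay between -0.04 and 0.07 at S1 and between -0.10 and 0.26 at S3, beside -0.0018 and -0.0038 for all genes. Between Het and WT 0 genes of the lists were called at either stage by edgeR or DESeq2, beside 0% of all genes in edgeR. In edgeR 1 gene of the MYC network at S1 and 0 at S3 had an unadjusted p under 0.05, beside 4.2% and 3.13% of all genes. For the comparison of the stage differences 0 were called by either tool, beside 0.00742% of all genes in edgeR. There 0 had an unadjusted edgeR p under 0.05, beside 2.96% of all genes.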

How the data were processed

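RNA was amplified with a SMARTer procedure before polyA library preparation. The authors mapped reads to mm39 with STAR 2.7.9 and counted read pairs with featureCounts 1.6.4 on Ensembl release 104, and deposited them as raw counts. The file header shows unstranded counting, without multi-mapping reads or reads over more than 1 gene. Symbols were matched for 54749 of 55416 genes through GENCODE mouse release 39. The table has 4 library columns that match no sample used here, which were left out. The labels' source field names an embryonic stem cell line, whereas titles and protocol describe erythroblasts sorted from foetal liver, which is what is used here.

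Counts were TMM-normalized and tested with edgeR 4.0.16 (glmQLFit, glmQLFTest) in R 4.3.3 over all genes with a mean above 10 normalized counts in the libraries compared. P-values were adjusted over all genes (Benjamini-Hochberg) and called under 0.05. The study's methods name DESeq2, here DESeq2 1.42.0 as an alternative. The edgeR fits were tested on simulated counts with known changes. Values printed per library were normalized over all 16 libraries. Likeness used log2 CPM with a prior count of 2.

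Libraries of the same embryo at both stages come from 1 animal. Their deviations from the group means correlated at 0.22, 0.33, 0.32 and 0.07 in WT embryos 1, 5, 8 and 0, 0.42 in KO and 0.05 in Het over 13402 genes. The genes most like a member, and up to 3 called genes a list, or up to 2 by smallest p between KO and WT where none was called, were named by rule, save Sgk1, the levels of Pfkp and the markers, which were named after their values were seen. The members and lists were chosen with earlier results of these data known. A gene of the list of other factors is not reported here. Promoter windows came from RefSeq (GRCm39). PCR copies were not removed by molecular identifiers, so counts are not independent molecules.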

Additional observations from a re-analysis of the deposited data

How the results depend on the processing

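Across 32 values (4 genes in 8 comparisons) 340 alternatives were run, namely DESeq2, other size factors (RLE), no filter on low counts, sex as a covariate, all 16 libraries in the fit, the embryo as a block, each embryo left out, and, chosen after seeing the data, the S1 libraries of WT embryos 0 and 8 left out. Of these, 44 were for the 4 values of Ndrg2 that were not tested, which moved by less than the spread between replicates. Of the other 296, in 268 the direction and the side of the threshold were the same, in 26 the direction turned, all for differences that were not called, and in 2 a call was lost. The cause was not tested. For Ndrg1, the difference between KO and WT lay in -0.46 to 0.013 (S1) and -0.41 to 0.15 (S3) with each embryo left out, and was 0.11 at S1 without WT embryos 0 and 8. Its rise in WT ran from 0.93 to 1.17 with each embryo left out and was 1.43 without the S1 libraries of WT embryos 0 and 8. Its comparison of stage differences was 0.0041 with DESeq2, 0.018 with sex and 0.024 with the embryo as a replicate block, and ran from -0.33 to 0.32 with each embryo left out. For Ndrg3, KO against WT at S3 ran from -0.065 to 0.011, Het against WT at S1 was -0.049 with sex and ran from -0.065 to 0.20, and the comparison of stage differences was -0.011 without WT embryos 0 and 8 and ran from -0.029 to 0.23. For Ndrg4, Het against WT was 0.85 at S1 without WT embryos 0 and 8 and -0.74 (S1) and -0.27 (S3) with sex, lay in -0.54 to 0.57 (S1) and -0.41 to 0.19 (S3), and the comparison of stage differences was 0.013 with DESeq2, 0.022 with RLE and -0.98 without WT embryos 0 and 8, and ran from -0.60 to 0.32. The block of embryos, which pairs the stages of 1 animal, changed no call of a member but moved the oxygen-sensing count in KO from 1 higher and 3 lower to 2 and 5, and the rise of Ndrg1 in WT was 1.03 with it. Counts of called genes over the whole table moved by over 1.5 times: KO against WT at S3 gave 50 higher and 10 lower, and 256 and 266 with sex, 145 and 114 with DESeq2, 219 and 137 without the filter, and 9 and 2 without WT embryo 8. Het against WT at S3 gave 0 and 0, and 1219 and 856 with sex, when 5 list genes and none of the 4 NDRG genes were called, Ndrg1 at -1.33 with an edgeR adjusted p of 0.068. Sex could not be a covariate within Het, where both embryos were male. For Het and KO, leaving out an embryo in the stage comparison was done with all other libraries in the fit, where the lone sample is taken to vary like the others.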
